A study of Mus musculus with 20 samples.

Results

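Loss of Gfi1 was examined in mouse tumours that arose under an active Notch1 transgene. The labels name thymocytes, the T-cell precursors made in the thymus, as their source. In 1 KO tumour, however, B-cell genes were high and most thymocyte markers low, as described below. These 4 arrays, 2 from tumours with intact Gfi1 (WT Notch 1 and 2) and 2 from tumours in which Gfi1 was to be deleted (KO Notch 1 and 2), are 4 of the 20 arrays of the series and were chosen by their sample titles. All 4 came from C57BL/6 mice with a floxed Gfi1 gene (Gfi1f/f) and a Notch transgene, given as Notch1-CT, that had received the mutagen ENU. The KO mice also carried the Mx1-Cre recombinase and the WT mice did not, so the effect of Cre and that of the Gfi1 deletion cannot be told apart. After ultrasound had shown a growing mediastinal tumour, pIpC was injected, and the tumour cells were taken about 2 to 3 weeks later. Mx1-Cre is switched on by interferon, which pIpC induces, in many cell types and not in T cells alone. The promoter of the Notch transgene, the age of the mice and the number of mice behind each array are not stated in the labels. Whether the arrays of a group stem from different mice is likewise unstated, and the spread behind a p-value may then be technical. The other arrays are 6 of ENU tumours without the Notch transgene (3 WT and 3 labelled Gfi1 KO) and 10 of untreated or irradiated thymocytes. The 6 ENU tumours are likewise recorded as taken 2 to 3 weeks after pIpC.

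Notch1 is a cell surface receptor whose cleaved intracellular part enters the nucleus and, with the DNA-binding protein RBPJ, switches on genes such as Hes1, Dtx1, Ptcra and Myc. It commits progenitors in the thymus to the T lineage, and its unregulated activity drives T-cell leukaemia. GFI1 is a zinc finger repressor that binds DNA with an AATC core and recruits histone demethylase and deacetylase complexes. It acts in lymphoid and myeloid cells and has been tied to the survival of lymphoid tumour cells.

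The 2 KO Notch tumours did not carry the same cell markers, and many results below are therefore given for each of them. A difference printed alone with its SE is the mean over both KO arrays. Such a mean can rest mostly on 1 of the 2 arrays and is not by itself a shared shift. Values are log2 signal, and a gene's level is compared only with its own level on other arrays. Over 12 defining thymocyte markers, the mean level was 10.87 and 12.31 in the WT arrays, 11.72 in KO Notch 1 and 9.48 in KO Notch 2. Of these markers, 10 of 12 lay below both WT arrays in KO Notch 2, against 48.9% of all genes tested. In KO Notch 1 it was 4 of 12, against 36.1% of all genes. The T-cell receptor chain Cd3e read 13.79 and 13.78 in WT, 13.76 in KO Notch 1 and 12.38 in KO Notch 2. The T-cell surface protein Thy1 read 12.92 and 13.47 in WT, 13.21 in KO Notch 1 and 10.02 in KO Notch 2. Both markers were low in KO Notch 2 alone. Cd4 was an exception, at 9.80 and 12.43 in WT, 9.78 in KO Notch 1 and 11.52 in KO Notch 2.

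B-cell genes ran the other way. Their mean level over 17 genes was 8.02 and 8.66 in WT, 8.32 in KO Notch 1 and 12.19 in KO Notch 2, where 16 of 17 lay above both WT arrays, against 2 of 17 in KO Notch 1. Of all genes tested, 33.6% lay above both WT arrays in KO Notch 2 and 35.1% in KO Notch 1. The B-cell surface protein Ms4a1 (CD20) read 6.63 and 7.66 in WT, 7.29 in KO Notch 1 and 12.89 in KO Notch 2. Pax5, the transcription factor that fixes B-cell identity, read 8.13 and 8.21 in WT, 8.17 in KO Notch 1 and 12.12 in KO Notch 2. The B-cell receptor chain Cd79a stood 0.44 above the WT mean in KO Notch 1 and 4.64 above it in KO Notch 2. The pre-B-cell receptor chains Vpreb1 and Igll1, which mark an early stage, read 8.80 and 7.82 in KO Notch 2, against 8.38 to 8.62 and 7.99 to 8.18 in WT. KO Notch 2 thus holds transcripts of B-cell genes at levels not seen on the other Notch arrays. The labels name thymocytes as the source of all 4 samples. In bulk RNA, fewer cells of a type and less RNA per cell cannot be told apart. The part of these B-cell transcripts in the results below was not tested.

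**Figure D1:**
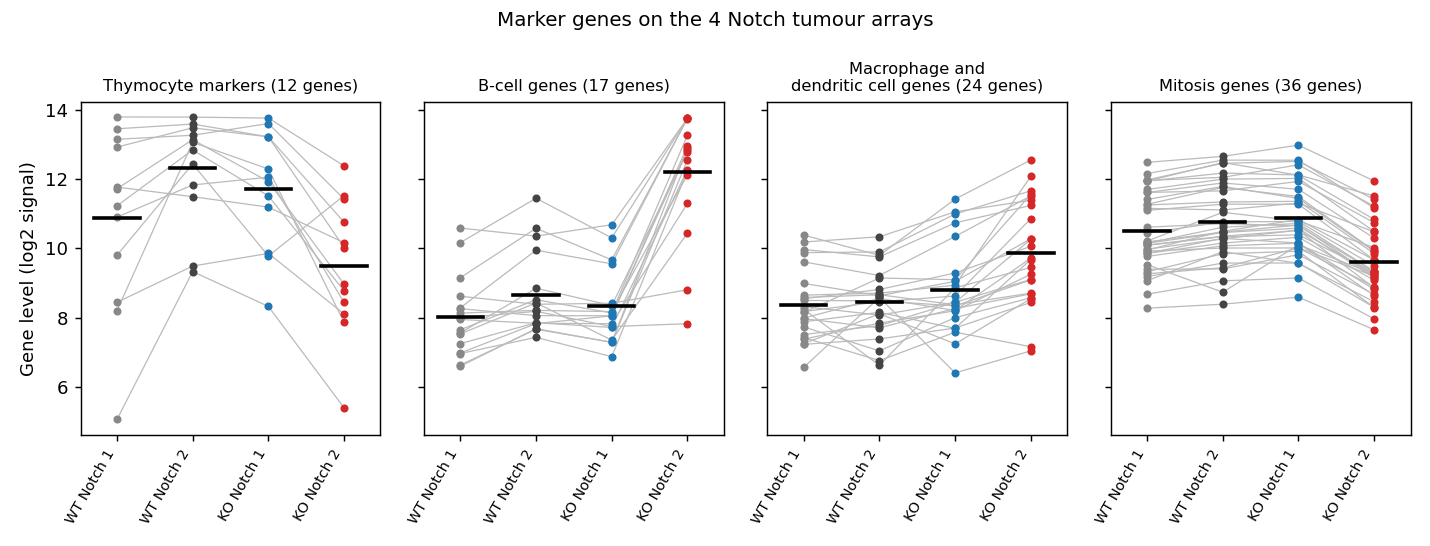
Log2 level of each gene of 4 marker lists on the 4 Notch tumour arrays. Each point is 1 gene, grey lines join a gene across arrays and black bars are the mean of the list. KO Notch 2 has high B-cell and low thymocyte marker levels (means 12.19 and 9.48), while KO Notch 1 lies between or near the WT arrays (8.32 and 11.72).

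The median signal of the 4 arrays lay between 9.09 and 9.18. The WT arrays differed in places too: Rag1, a subunit of the recombinase that assembles antigen receptor genes, read 8.20 in WT Notch 1 and 13.06 in WT Notch 2. Over the 13025 genes tested, the arrays of the WT pair were more than 2-fold apart in 514 genes (3.95%), and those of the KO pair in 2316 (17.8%). The correlation of log2 levels across genes, with each gene's mean level kept in, was 0.937 within the WT pair and 0.744 within the KO pair. These correlations describe the arrays and are not a test.

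The targeted gene was read by 8 probe sets, of which 7 passed the filter on low signal. Probe set 2 read 11.43 and 11.01 in WT, 6.31 in KO Notch 1 and 7.10 in KO Notch 2. Both KO arrays lay far below both WT arrays. The difference was -4.51 ± 0.37 (standard error, SE; limma adjusted p = 0.046), in a table where 2 of 115045 probe sets (0.00174%) passed. Probe set 3 read 10.80 and 10.33 in WT against 8.78 and 9.01 in KO (-1.67 ± 0.28, limma adjusted p = 0.236), and probe set 4 read 10.80 and 10.65 against 10.36 and 10.06. Probe sets 1, 5, 6 and 7 did not separate the groups: in each of them KO Notch 1 was the highest and KO Notch 2 the lowest of the 4 arrays. Probe set 5, for example, read 9.71 and 9.53 in WT, 10.20 in KO Notch 1 and 9.02 in KO Notch 2. Which part of Gfi1 each covers, and which was deleted, is not stated in the labels. The call of probe set 2 did not hold without WT Notch 1, WT Notch 2 or KO Notch 2 (limma adjusted p = 0.646, 0.165 and 0.0577), and its difference then lay between -4.91 and -4.30. In ENU tumours labelled Gfi1 KO the same probe set read 10.70 to 11.01, within the range of WT ENU tumours (10.58 to 11.56).

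The neighbours and partners of Gfi1 were looked at beside it. Evi5, the gene next to Gfi1 and a regulator of the cell cycle, read 7.88 and 7.48 in WT against 8.56 and 8.40 in KO (0.80 ± 0.22, limma adjusted p = 0.61), with both KO arrays higher. Its paralog Gfi1b, a repressor of the same family, read 8.94 and 8.94 in WT against 9.11 and 9.23 in KO (0.23 ± 0.15, limma adjusted p = 0.83). Of 15 cofactor and neighbour genes tested, 2 had both KO arrays above and 4 had both below both WT arrays, against 11.7% and 17.4% of all genes tested. Their median was 0.05 in KO Notch 1 and -0.69 in KO Notch 2, against 0.00 and -0.10 over all genes. The histone deacetylase Hdac2 read 11.17 and 11.31 in WT, 11.06 in KO Notch 1 and 9.55 in KO Notch 2 (-0.93 ± 0.49). Its partner Hdac1 differed by -0.48 ± 0.28 and Rcor1, a scaffold of the demethylase complex, by -0.34 ± 0.20.

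Across all genes, the comparison of KO with WT addresses how expression in Notch-driven tumours depends on Gfi1. Of 13025 genes tested, 0 were called higher and 2 lower in KO (0.0154% called; limma, adjusted p under 0.05). At an unadjusted p under 0.05, 345 genes lay higher and 435 lower. Both KO arrays lay above both WT arrays in 1525 genes (11.7%) and below both in 2264 (17.4%). Taken alone, KO Notch 1 was above both WT arrays in 35.1% and below both in 36.1% of genes, and KO Notch 2 in 33.6% and 48.9%. KO Notch 1 stood more than 2-fold above the WT mean in 297 genes and more than 2-fold below it in 184. KO Notch 2 did so in 891 and 1039 genes. Both KO arrays passed that fold in the same direction in 93 genes above and 80 below, and in opposite directions in 63. The median difference over all genes was -0.05 (0.00 in KO Notch 1 and -0.10 in KO Notch 2), and the median SE was 0.25.

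**Figure D2:**
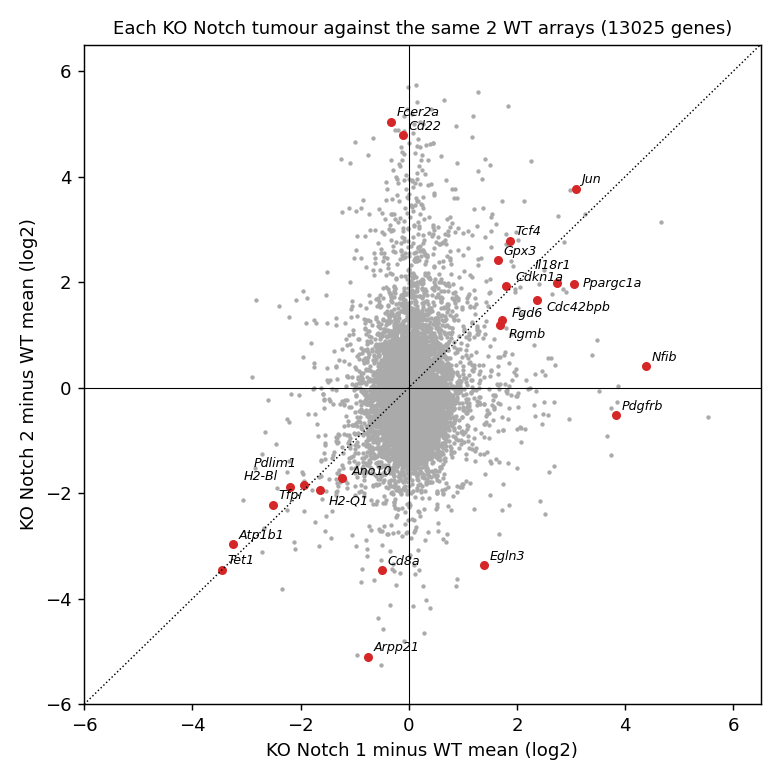
Difference from the mean of the WT Notch arrays (log2) in KO Notch 1 (x axis) and KO Notch 2 (y axis) for the 13025 genes tested, with genes named in the text in red; both axes share the WT arrays, and the dotted line marks equal values. Genes such as Pdlim1 and Tet1 lie near the dotted line, while Fcer2a and Cd22 are high in KO Notch 2 alone and Pdgfrb and Nfib in KO Notch 1 alone.

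Both called genes fell. Pdlim1, a PDZ and LIM domain protein that links proteins to the actin cytoskeleton, read 12.87 and 12.55 in WT and 10.78 and 10.87 in KO. The KO arrays were nearly equal and far below WT, a difference of -1.89 ± 0.16 (limma adjusted p = 0.0212), and 3 of its 3 probe sets had both KO arrays lower. H2-Bl, an MHC class I gene, read 10.16 and 10.16 in WT and 7.97 and 8.28 in KO (-2.04 ± 0.19, limma adjusted p = 0.0215). Its 2 probe sets disagreed. One read 10.25 and 10.21 in WT and 6.97 and 6.39 in KO, and the other 10.07 and 10.11 in WT, 8.96 in KO Notch 1 and 10.18 in KO Notch 2. MHC class I genes are near-identical copies of each other, so values of single members are uncertain. Both calls were lost, with 0 genes called, without WT Notch 1, WT Notch 2, WT ENU 1 or KO ENU 2 in limma (smallest adjusted p = 0.384, 0.12, 0.0864 and 0.074; unadjusted p under 0.05 in 447, 560, 679 and 655 genes). A fit on the 4 Notch arrays alone called 0 genes as well (smallest limma adjusted p = 0.749; unadjusted p under 0.05 in 361). Without KO Notch 1, 1066 genes were called, as described below, and without KO Notch 2 there were 5.

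A further 10 genes had an adjusted p of 0.0696 in limma, which does not pass, with 6 of the leading 12 genes higher in KO and 6 lower. They are named as the next genes by p, a choice made after their values were seen. Ppargc1a, a coactivator of mitochondrial genes, read 6.00 and 6.09 in WT against 9.09 and 8.01 in KO (2.51 ± 0.30). Cdc42bpb, a kinase that acts on the actin cytoskeleton, read 7.74 and 7.83 against 10.16 and 9.45 (2.02 ± 0.25). Rgmb, a co-receptor for bone morphogenetic proteins, read 7.71 and 7.78 against 9.42 and 8.92 (1.43 ± 0.18). In these 3 genes every probe set had both KO arrays higher, 14 of 14, 32 of 32 and 4 of 4. Fgd6, an exchange factor for the GTPase CDC42, read 7.38 and 7.29 against 9.06 and 8.61. Gpx3, a secreted glutathione peroxidase, differed by 2.03 ± 0.28, and the E protein transcription factor Tcf4 by 2.33 ± 0.32. On the lower side stood Atp1b1, a subunit of the sodium pump, at 11.57 and 11.01 in WT against 8.04 and 8.33 in KO (-3.11 ± 0.39). Tfpi, an inhibitor of blood clotting, differed by -2.37 ± 0.33, Ano10, of the anoctamin membrane protein family, by -1.47 ± 0.19 and the MHC class I gene H2-Q1 by -1.79 ± 0.24. Every probe set also had both KO arrays on the gene's side for Fgd6 (21), Gpx3 (5) and Atp1b1 (7). For Tcf4 it was 15 of 22, for Tfpi 11 of 12, for Ano10 12 of 13 and for H2-Q1 6 of 8. The genes were ranked on the median of these same probe sets, so the counts are no separate support. Tcf4 is also abundant in B cells and plasmacytoid dendritic cells, and it stood 1.86 above the WT mean in KO Notch 1 and 2.79 in KO Notch 2. In KO Notch 1, 2 of 17 B-cell genes and 17 of 24 macrophage and dendritic cell genes lay above both WT arrays, against 35.1% of all genes. The part of such RNA in the Tcf4 values was not tested.

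The other arrays of the series give ranges to set these 12 genes against, though the ENU arrays also entered the fit that ranked them. That ranking favours genes with little spread within the ENU groups and with KO Notch far from WT Notch. The count below is thus a description, and the share of all genes was not computed. For 6 of them (Pdlim1, Ppargc1a, Cdc42bpb, Rgmb, Ano10 and Fgd6) the WT Notch arrays lay within the range of the 6 ENU tumour arrays and both KO Notch arrays lay outside it. Pdlim1, for instance, read 12.24 to 12.92 in ENU tumours and 12.31 to 13.11 in thymocytes, all above both KO Notch arrays. Thymocytes gave another picture for Rgmb, Ano10 and Fgd6. Rgmb read 7.86 to 10.35 there, a range that holds both KO Notch arrays. Ano10 read 8.958 to 9.875, below both WT Notch arrays. Fgd6 read 7.425 to 8.927, above both WT Notch arrays and with KO Notch 2 in the range. For H2-Bl and H2-Q1 it was the WT Notch arrays that stood outside: H2-Bl read 7.90 to 8.62 in ENU tumours and 7.34 to 8.03 in thymocytes, and only the WT Notch arrays reached 10.16. Tcf4 was lower in the WT Notch arrays than in any of the 16 other arrays, and KO Notch 2 (11.94) was above the ENU tumours (10.22 to 11.06) and thymocytes (9.85 to 10.33).

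**Figure D3:**
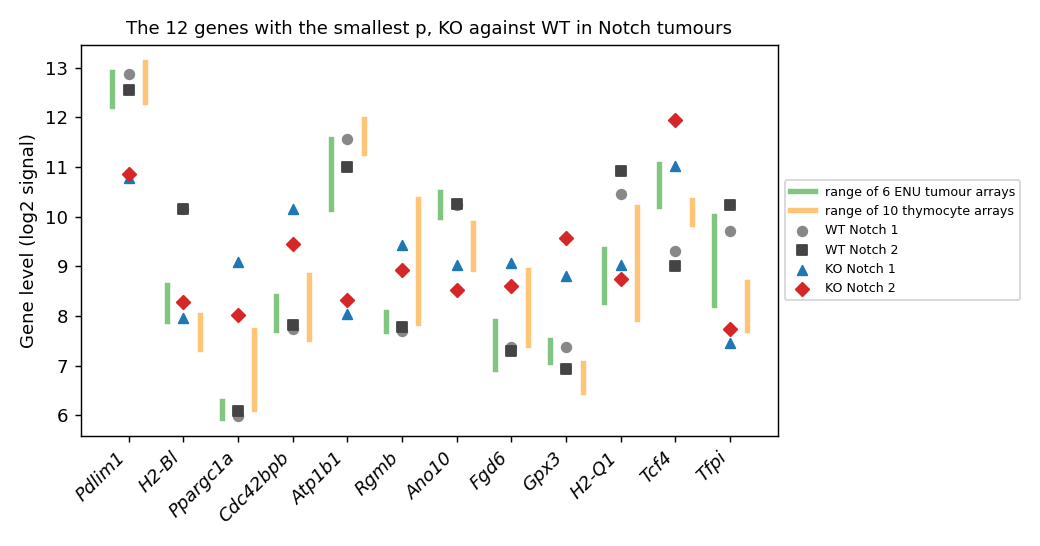
Log2 level of the 12 genes with the smallest p on the WT Notch arrays (grey) and KO Notch arrays (blue and red), beside the range of the 6 ENU tumour arrays (green bars) and the 10 thymocyte arrays (orange bars). Both KO points of Pdlim1 (10.78 and 10.87) lie under both bars, whereas for H2-Bl the WT points (10.16) lie above them.

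Since the comparison rests on 2 unlike KO arrays, it was repeated with 1 KO array left out, the remaining array being assumed to vary like those of the other groups. Without KO Notch 2, 5 of 12853 genes were called (0.0389%). They were Cdc42bpb (2.38 ± 0.22) and Rgmb (1.68 ± 0.17), which rose, and Zfp369, a zinc finger protein (-2.45 ± 0.22), H2-Bl (-2.19 ± 0.22) and Pdlim1 (-1.93 ± 0.20), which fell (limma adjusted p = 0.0305 for each). Without KO Notch 1, 506 of 12951 genes were called higher (3.91%) and 560 lower (4.32%). The genes with the smallest p in that fit were Camk4, a calcium-dependent kinase of T cells (-4.12 ± 0.19), the B-cell receptor regulator Cd22 (4.79 ± 0.25), Bcl11a (3.96 ± 0.21) and the antigen presentation gene H2-DMb2 (4.12 ± 0.22), each with a limma adjusted p of 0.000372. Pdlim1 and H2-Bl were called in both of these fits.

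The genes that separated the KO arrays most were chosen among those whose WT arrays lay within 0.5 of each other. The low-affinity IgE receptor Fcer2a, found on B cells, read 6.96 and 7.43 in WT, 6.87 in KO Notch 1 and 12.24 in KO Notch 2. Beside it stood Cd22, Rasgrp3, an activator of RAS in B cells, Rgs13, a regulator of G protein signalling found in germinal centre B cells, Serpina3g, Ciita, the master regulator of MHC class II, and Ighvq52.3.8, an immunoglobulin variable segment. Ciita read 7.38 in KO Notch 1 and 12.02 in KO Notch 2, and Rgs13 4.98 and 10.12. Gm459, Gm5153 and 2010001M09Rik completed these 10, at 12.24 to 14.06 in KO Notch 2. Among the Notch arrays, all 10 were high in KO Notch 2 only, though Rgs13 reached 10.33 in a WT ENU tumour.

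In the other direction, among the Notch arrays, some genes were high in KO Notch 1 alone and others low in KO Notch 2 alone. Nfib, a transcription factor of the nuclear factor I family, read 6.44 and 6.68 in WT, 10.94 in KO Notch 1 and 6.97 in KO Notch 2. The glutamate receptor subunit Grik1 read 6.72 and 7.21 in WT, 10.81 in KO Notch 1 and 6.70 in KO Notch 2. Pdgfrb, the receptor for platelet-derived growth factor, read 8.76 and 8.65 in WT, 12.54 in KO Notch 1 and 8.18 in KO Notch 2. Among the Notch arrays, these 3 genes were high in KO Notch 1 alone. Pdgfrb, however, read 11.18 to 12.63 in WT ENU tumours and 11.505 to 12.622 in those labelled KO. Both ranges hold KO Notch 1. Grik1 reached 9.45 in a WT ENU tumour. Egln3, an oxygen-sensing prolyl hydroxylase, and 4930452B06Rik were high in KO Notch 1 and low in KO Notch 2. Egln3 read 11.16 and 11.27 in WT Notch, 12.61 in KO Notch 1, 7.85 in KO Notch 2 and 12.46 to 12.64 in WT ENU tumours. The thymocyte gene Arpp21 read 11.75 and 11.26 in WT, 10.76 in KO Notch 1 and 6.40 in KO Notch 2. The protease gene Gzma, with Igfbp4, Spats2 and D430041D05Rik, was also far lower in KO Notch 2, at 6.45 to 7.40.

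The promoters of 4 genes are printed because they carry results here: Pdlim1 passed in the genome-wide test, Il18r1 leads the genes shared with thymocytes below, Rgmb is among both the leading 12 genes and the shared genes, though it did not pass, and Lgmn alone among the shared genes holds a longer match. Each is 300 bases around a RefSeq start site (GRCm38.p6), read 5′ to 3′ on the gene's strand. Il18r1, Rgmb and Lgmn have further start sites, and only the first listed is printed. Start 3 of Il18r1 held no AATC, and start 2 of Lgmn held neither longer form. Capitals mark matches to the core AATC, or its reverse GATT, and in Lgmn to the longer AATCAC and AATCANNGC, which contain that core and overlap each other.
Pdlim1 promoter, chr19:40271567-40271866, minus strand: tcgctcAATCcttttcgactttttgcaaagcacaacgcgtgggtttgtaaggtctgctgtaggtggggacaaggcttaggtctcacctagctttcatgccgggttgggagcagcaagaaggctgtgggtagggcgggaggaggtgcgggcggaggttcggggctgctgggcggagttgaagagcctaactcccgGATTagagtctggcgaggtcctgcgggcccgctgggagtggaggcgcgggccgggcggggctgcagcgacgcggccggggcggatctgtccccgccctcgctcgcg
Il18r1 promoter, chr1:40465302-40465601, plus strand: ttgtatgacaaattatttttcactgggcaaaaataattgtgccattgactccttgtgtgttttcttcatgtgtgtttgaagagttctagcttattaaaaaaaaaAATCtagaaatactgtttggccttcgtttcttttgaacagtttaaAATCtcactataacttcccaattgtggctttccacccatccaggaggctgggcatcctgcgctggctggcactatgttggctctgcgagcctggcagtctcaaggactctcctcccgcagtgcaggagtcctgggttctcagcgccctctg
Rgmb promoter, chr17:15831197-15831496, minus strand: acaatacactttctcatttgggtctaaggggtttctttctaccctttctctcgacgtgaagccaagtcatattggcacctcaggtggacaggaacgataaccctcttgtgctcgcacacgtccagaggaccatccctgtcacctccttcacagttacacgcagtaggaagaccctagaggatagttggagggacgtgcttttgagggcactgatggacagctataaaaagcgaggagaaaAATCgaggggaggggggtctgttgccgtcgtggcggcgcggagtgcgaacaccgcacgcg
Lgmn promoter, chr12:102439679-102439978, minus strand: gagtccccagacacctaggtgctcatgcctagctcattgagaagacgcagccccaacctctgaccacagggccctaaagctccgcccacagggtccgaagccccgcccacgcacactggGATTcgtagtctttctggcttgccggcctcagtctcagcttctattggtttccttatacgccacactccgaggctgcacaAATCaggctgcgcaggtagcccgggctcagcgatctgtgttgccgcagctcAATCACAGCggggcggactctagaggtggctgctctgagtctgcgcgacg
AATC on either strand was found in 73.1% of all 32851 promoters of that length, in 75.0% of those of the leading genes and in 76.5% of those of the shared genes. AATCAC was found in 10.4% of all promoters and AATCANNGC in 3.28%. Neither longer form was found in the 12 promoters of the 9 leading genes that matched the table, and each was found in 1 of the 17 promoters of the 11 shared genes that matched (5.88%). A match is a description of letters and not a binding site.

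The gene lists hold 697 distinct genes tested. Of these members, 0 passed the genome-wide test (limma), while at an unadjusted p under 0.05, 39 lay higher and 38 lower. The lists are therefore described by how many members had both KO arrays on one side of both WT arrays (background 11.7% above and 17.4% below) and by the median in each KO array (background 0.00 and -0.10). For 1 KO array taken alone, the background was 35.1% above and 36.1% below in KO Notch 1, and 33.6% and 48.9% in KO Notch 2.

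T-cell receptor signalling genes were lower in both KO arrays for part of the list. Of 21 members, 13 had both KO arrays below both WT arrays and 1 above, and the median was -0.21 in KO Notch 1 and -1.39 in KO Notch 2. The surface receptor Cd6, a partner of the receptor complex, read 10.86 and 10.33 in WT, 9.60 in KO Notch 1 and 8.97 in KO Notch 2 (-1.31 ± 0.29, limma adjusted p = 0.396). Cd5, which dampens receptor signals, read 11.77 and 11.49 against 11.19 and 10.16 (-0.95 ± 0.30). The RAS activator Rasgrp1 and the phospholipase Plcg1 differed by -0.93 ± 0.34 and -0.88 ± 0.34. In KO Notch 1 alone, 17 of 21 members lay below both WT arrays, against 36.1% of all genes, and 3 above. In KO Notch 2, 15 lay below and 6 above. In 12 of the 13 members that were lower in both, the exception being Fyn, the shortfall was larger in KO Notch 2, the array with low thymocyte markers.

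Genes of thymocyte stages differed between the KO arrays. Of 19 genes of double-positive thymocytes, which carry both CD4 and CD8, 6 had both KO arrays below and 1 above, with medians of -0.27 and -1.80. The chromatin organiser Satb1 read 12.67 and 12.86 in WT against 12.20 and 11.28 in KO (-1.02 ± 0.34). Dntt, the enzyme that adds bases to receptor gene joints, differed by -3.01 ± 1.10, the water channel Aqp11 by -4.06 ± 1.40 and Themis by -2.47 ± 0.97. Dntt, Aqp11 and Themis stood at -0.96, -1.27 and -0.56 from the WT mean in KO Notch 1. In KO Notch 2 they stood at -5.06, -6.85 and -4.37. Cd8a read 11.72 and 13.13 in WT, 11.92 in KO Notch 1 and 8.96 in KO Notch 2. Of 15 double-negative genes, the earliest stage, 2 lay above and 0 below (medians 0.52 and 0.22). Lmo2, a leukaemia oncogene, read 8.97 and 11.07 in KO against a WT mean of 8.12 (1.90 ± 0.54, limma adjusted p = 0.61). Il7r, the receptor for interleukin 7, read 7.80 and 10.36 in WT against 11.04 and 10.94 in KO, with WT Notch 1 far below the rest. Bcl11a (1.87 ± 1.03) and the adhesion receptor Cd44 (1.51 ± 0.87) were high in KO Notch 2 alone. Of 26 genes of mature single-positive cells, 3 lay above and 3 below (medians -0.21 and 0.43), with H2-Q2 at -1.43 ± 0.29, the co-receptors Cd27 at -1.25 ± 0.51 and Cd28 at -0.99 ± 0.47, and the integrin chain Itgb7 at 1.01 ± 0.42. Cd27 and Cd28 stood at -0.27 and -0.20 from the WT mean in KO Notch 1, and at -2.23 and -1.77 in KO Notch 2.

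Transcription factors of the T lineage had 9 of 31 below and 3 above, with medians of -0.18 and -0.80. Ikaros (Ikzf1), a factor and tumour suppressor of lymphoid cells, read 12.40 and 12.30 in WT against 11.86 and 11.38 in KO (-0.73 ± 0.20, limma adjusted p = 0.61). The T-lineage factors Tcf7, Bcl11b and Lef1 each had both KO arrays below WT, with differences of -0.49 to -0.16 in KO Notch 1 and -3.51 to -2.71 in KO Notch 2. Maf, a factor of innate-like T cells, read 8.57 and 8.17 in WT against 9.64 and 11.44 in KO (2.17 ± 0.76). It belongs to the gamma delta and innate-like list, where 4 of 10 lay above and 0 below (medians 0.55 and 0.16). Id2, an inhibitor of E proteins that GFI1 is known to repress, did not separate the groups, at 10.45 and 9.88 in WT against 10.21 and 9.97 in KO. Ccr6 stood at 2.27 ± 1.10 and Il17rb at -2.44 ± 1.26, each mainly through KO Notch 2. NK and cytotoxic genes had 2 of 12 above and 2 below, and medians of -0.32 and 1.60, led by Fcer1g (1.75 ± 0.61), Ccl5 (1.74 ± 0.73), Gzmk (2.06 ± 0.88) and Gzma (-2.53 ± 1.23). All of these were further from the WT mean in KO Notch 2, with Gzmk at 0.456 in KO Notch 1 and 3.655 in KO Notch 2.

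Notch receptors and target genes did not separate by genotype. Notch1 read 13.48 and 12.81 in WT, 13.52 in KO Notch 1 and 11.06 in KO Notch 2. Whether its probe sets also read the transgene is not stated in the labels. Hes1 read 10.62 and 8.90 in WT, 10.42 in KO Notch 1 and 7.84 in KO Notch 2. Dtx1 read 12.64 and 11.13 in WT against 12.44 and 11.55 in KO, Ptcra, the pre-T-cell receptor chain, 8.44 and 9.49 against 9.85 and 8.10, and Myc 12.84 and 12.48 against 12.77 and 11.71. WT Notch 1 and KO Notch 1 were the higher arrays of Notch1, Hes1, Dtx1 and Myc, and the groups overlapped in all 5 genes. Of the 24 members tested, 3 lay above and 5 below, with medians of 0.28 in KO Notch 1 and -0.76 in KO Notch 2. Those below in both were Tcf7, Bcl11b, Hes5, Igf1r and Rbpj, and those above Notch2, Dtx4 and Maml2. Igf1r, the receptor for insulin-like growth factor, read 9.36 and 10.56 in WT against 9.26 and 9.18 in KO (-0.74 ± 0.37). Gata3 was low in KO Notch 2 alone (-1.22 ± 0.66 over both).

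Among leukaemia genes, 1 of 17 oncogenes lay above and 4 below (medians -0.16 and -0.21): Lmo2, already given, was above, and Ccnd3, a cyclin that drives entry into S phase, differed by -0.82 ± 0.34, the signalling factor Stat5b by -0.68 ± 0.29 and Myb, low in KO Notch 2 alone, by -1.82 ± 0.78. Of 19 tumour suppressors 3 lay above and 5 below (medians -0.08 and -0.38), and the 4 of smallest p, Ikzf1, Ezh2, Bcl11b and Lef1, lay below. The polycomb and DNA methylation list had 9 of 22 below and 1 above (medians -0.08 and -0.64). Tet1, an enzyme that oxidises methylated cytosine, read 10.52 and 10.10 in WT and 6.85 and 6.86 in KO. The KO arrays were nearly equal and far below WT, and the difference was -3.46 ± 1.13 (limma adjusted p = 0.697). In ENU tumours of the same fit Tet1 read 6.92 to 10.24 in WT and 7.48 to 10.16 in KO arrays. The histone methyltransferase Ezh2 read 12.50 and 12.35 in WT against 12.08 and 10.90 in KO (-0.94 ± 0.36). Tet3 differed by -0.37 ± 0.16 and Cbx7 by 1.11 ± 0.50.

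Genes of the p53 pathway gave no common direction. Cdkn1a, the p21 inhibitor of cell division and a target of both p53 and GFI1, read 7.82 and 7.87 in WT and 9.65 and 9.76 in KO. Both KO arrays stood above WT and close to each other, with a difference of 1.86 ± 0.97 (limma adjusted p = 0.807). Cdkn1a ranged from 8.42 to 11.86 in ENU tumours of the same fit. Of 35 p53 targets outside the BCL-2 family, 7 lay above and 4 below, with medians of 0.04 and 0.01. Xpc, a sensor of DNA damage, differed by -0.84 ± 0.24, Gadd45a by -0.36 ± 0.17, Dram1 by 0.68 ± 0.28 and 9630033F20Rik, the array's name for Tigar, by 0.46 ± 0.19. Mdm2, the ligase that degrades p53, read 11.02 and 10.80 in WT against 10.85 and 11.05 in KO. Trp53 itself was not analysed here.

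Of 12 pro-apoptotic BCL-2 family genes 3 lay above and 0 below, with medians of 0.05 and 0.09. Pmaip1 (NOXA) read 8.33 and 8.40 in WT against 8.50 and 9.44 in KO (0.60 ± 0.34), Bcl2l11 (BIM) 9.73 and 9.98 against 10.42 and 10.22 (0.47 ± 0.53), and Bbc3 (PUMA) 8.65 and 8.40 against 8.43 and 8.47 (-0.08 ± 0.18). Bok and Bnip3l differed by 0.14 ± 0.14 and -0.19 ± 0.23. The survival genes did not separate the groups: Bcl2 read 9.69 and 9.79 in WT against 9.51 and 10.05 in KO, Bcl2l1 8.10 and 9.37 against 8.48 and 8.36, and Mcl1 10.86 and 11.04 against 10.91 and 11.61. Of 7 anti-apoptotic genes 0 lay above and 1 below (medians -0.26 and 0.36), with Birc3 at 0.72 ± 0.59, Xiap at -0.22 ± 0.18 and Birc2 at 0.28 ± 0.39. Among 5 caspases 2 lay above and 2 below (medians -0.10 and -0.31). Casp6, an executioner caspase, read 10.57 and 10.80 in WT and 9.69 and 9.61 in KO, a difference of -1.03 ± 0.16 (limma adjusted p = 0.11). Casp2 differed by -0.56 ± 0.23, Casp9 by 0.25 ± 0.15 and Casp4 by 2.05 ± 0.96, at 7.58 and 7.54 in WT, 7.70 in KO Notch 1 and 11.51 in KO Notch 2.

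Proliferation genes went opposite ways in the KO arrays. Of all genes tested, 35.1% lay above both WT arrays in KO Notch 1 and 48.9% below both in KO Notch 2. Of 36 mitosis genes, 26 lay above both WT arrays in KO Notch 1 and 35 below both in KO Notch 2, with medians of 0.21 and -1.05. Of 36 replication genes, 25 lay above in KO Notch 1 and 34 below in KO Notch 2 (medians 0.24 and -1.10). Both KO arrays lay on the same side of WT in 0 mitosis genes and 1 replication gene. The motor protein Kif11 differed by -0.92 ± 0.43, Nusap1 by -0.80 ± 0.44 and the condensin subunits Smc4 and Smc2 by -0.73 ± 0.42 and -0.67 ± 0.40, and in KO Notch 1 each lay between the WT arrays. In the replication list Cdt1 stood at -0.48 ± 0.29, Lig1 at -0.58 ± 0.40, Mcm7 at -0.65 ± 0.46 and Pcna at -0.44 ± 0.32. Ribosome biogenesis and MYC target genes split alike, with 24 of 27 above in KO Notch 1 and 24 of 27 below in KO Notch 2 (medians 0.42 and -0.52), among them Wdr12 (-0.71 ± 0.47) and Dkc1 (-0.79 ± 0.73). Odc1 (0.55 ± 0.42) was the 1 member with both KO arrays above WT, and Ldha (-0.28 ± 0.27) lay between the WT arrays in KO Notch 1. Subunits of oxidative phosphorylation had 24 of 27 above in KO Notch 1 and 22 below in KO Notch 2 (medians 0.41 and -0.40). Uqcrb (1.13 ± 0.55) and Ndufa1 (0.45 ± 0.25) had both KO arrays above WT, Ndufb8 (0.43 ± 0.30) only KO Notch 1, and Atp5b differed by -0.26 ± 0.22. DNA repair genes had 0 of 36 above and 7 below (medians 0.03 and -0.67), with Fancc at -0.55 ± 0.20, the repair enzyme Mgmt, which removes alkyl groups of the kind ENU leaves, at -0.42 ± 0.18, Chek1 at -0.76 ± 0.39 and Msh6 at -0.86 ± 0.46. Mgmt read 8.33 and 8.08 in WT and 7.78 and 7.80 in KO.

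Cyclins and their kinases had 2 of 16 above and 2 below (medians -0.10 and -0.14), with Cdk2 at -0.58 ± 0.24. Glycolysis genes had 1 of 19 above and 2 below (medians -0.05 and -0.18), led by Pfkm (-0.82 ± 0.35), Aldoa (0.33 ± 0.22), Pdk1 (-0.47 ± 0.38) and Slc2a3 (-0.65 ± 0.54). Cholesterol genes had 1 of 15 above and 1 below (medians 0.07 and -0.10), led by Dhcr7 (-0.43 ± 0.22), Mvk (-0.20 ± 0.22), Cyp51 (0.47 ± 0.58) and Insig1 (0.22 ± 0.28). Stress genes under ATF4 had 7 of 18 above and 0 below (medians 0.18 and 0.06). The factor Atf4 read 9.33 and 9.42 in WT against 9.94 and 10.12 in KO (0.65 ± 0.28), the amino acid transporter chain Slc3a2 differed by 0.44 ± 0.21, the proline synthesis enzyme Pycr1 by 1.08 ± 0.51 and Atf3 by 0.37 ± 0.23.

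Many macrophage and interferon genes lay above WT in both KO arrays. Of 24 macrophage and dendritic cell genes, 16 lay above and 0 below, with medians of 0.44 and 1.45. The lysozyme gene Lyz2 read 10.38 and 9.80 in WT against 11.42 and 12.55 in KO (1.90 ± 0.51, limma adjusted p = 0.61). The complement gene C1qb read 9.88 and 9.89 against 10.99 and 11.66 (1.44 ± 0.62), Lyz1 differed by 1.52 ± 0.46 and the Fc receptor Fcgr1 by 0.76 ± 0.33. Of 38 interferon response genes, 17 lay above and 0 below, with medians of 0.38 and 0.98. Ifi44 read 6.79 and 8.37 in WT against 9.10 and 10.54 in KO (2.24 ± 0.55, limma adjusted p = 0.532), Ifitm3, which blocks virus entry, differed by 2.37 ± 0.60, Ifi35 by 0.95 ± 0.27 and Oasl1 by 0.72 ± 0.21. Both groups had received pIpC, an inducer of interferon. The mean level of the macrophage list was 8.38 to 8.44 in WT Notch, 8.80 and 9.87 in KO Notch, 8.94 to 9.12 in WT ENU and 9.08 to 10.56 in ENU arrays labelled KO. The part of macrophage RNA in the interferon values was not tested.

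The other lists of cells and signals differed in how far each KO array stood from WT. MHC class II genes had 2 of 9 above and 0 below (medians -0.33 and 3.33), led by H2-DMb2 (2.18 ± 0.96), H2-DMa (1.58 ± 0.84), H2-Oa (0.77 ± 0.42) and Ciita (1.99 ± 1.16). MHC class I genes split: 12 of 21 lay above, among them H2-K1, H2-D1 and Nlrc5, the activator of the class, and 6 below, among them H2-Q1, H2-Q2 (-1.43 ± 0.29) and H2-T10 (-1.30 ± 0.39). H2-T10 read 11.88 and 11.72 in WT, 10.12 in KO Notch 1 and 10.88 in KO Notch 2, and Psmb10, a subunit of the immunoproteasome, differed by 0.57 ± 0.21. Granulocyte genes had 4 of 7 above and 1 below (medians 0.26 and 1.00), with Csf3r at 1.05 ± 0.38, Mpo at 0.89 ± 0.35, Ela2 at 0.51 ± 0.36 and Retnlg at -1.80 ± 1.01. Erythroid and megakaryocyte genes had 2 of 9 above and 1 below (medians 0.01 and 0.20), led by Ppbp (0.84 ± 0.57), Pf4 (0.40 ± 0.34), Tfrc (-0.69 ± 0.76) and Epor (0.14 ± 0.19). Thymic epithelial genes had 0 of 11 above and 2 below (medians -0.17 and 0.07), led by Ccl25 (-0.58 ± 0.29), Ly75 (-0.47 ± 0.35), Epcam (0.37 ± 0.66) and Krt14 (-0.07 ± 0.15). Of the 11, 10 lay below both WT arrays in KO Notch 1 and 3 in KO Notch 2, against 36.1% and 48.9% of all genes. Endothelial and fibroblast genes had 3 of 18 above and 3 below (medians 0.00 and -0.03), led by Fbln1 (-1.58 ± 0.73), Col1a2 (-1.23 ± 0.79), Fn1 (1.64 ± 1.08) and Pdgfrb (1.66 ± 1.17).

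Immediate early genes had 6 of 25 above and 0 below (medians 0.04 and 0.97). Jun, an AP-1 family transcription factor, read 7.20 and 9.07 in WT and 11.22 and 11.90 in KO, a difference of 3.42 ± 0.64 (limma adjusted p = 0.264) that held in 6 of its 6 probe sets. Klf6 read 7.79 and 8.95 against 9.20 and 10.04 (1.25 ± 0.38), while Fos (1.74 ± 0.82) and Egr3 (1.04 ± 0.51) were high mainly in KO Notch 2. Inflammatory genes had 5 of 12 above and 0 below (medians 0.17 and 0.78). Il10, the anti-inflammatory cytokine interleukin 10, read 6.10 and 6.04 in WT and 8.57 and 8.31 in KO (2.37 ± 0.79, limma adjusted p = 0.697), with the KO arrays close to each other. Ccl3 (2.24 ± 0.84), Ccl5 and Cxcl10 (1.42 ± 0.63) were highest in KO Notch 2. Chemokine and egress receptors had 3 of 9 above and 1 below (medians 0.01 and 0.63), with Gpr183 at 2.35 ± 0.46, Ccr4 at -1.54 ± 0.58 and Cxcr4 at 0.41 ± 0.20. Ccr4 stood at -0.46 from the WT mean in KO Notch 1 and at -2.62 in KO Notch 2. Cytokine receptors had 4 of 30 above and 5 below (medians -0.16 and 0.33), with Il12rb1 at -1.17 ± 0.36 and Ifngr1 at -0.62 ± 0.23. Integrins and adhesion molecules had 2 of 22 above and 1 below (medians -0.13 and 0.48), with Amica1 at 1.03 ± 0.56 and Icam1 at 0.67 ± 0.39.

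**Figure D4:**
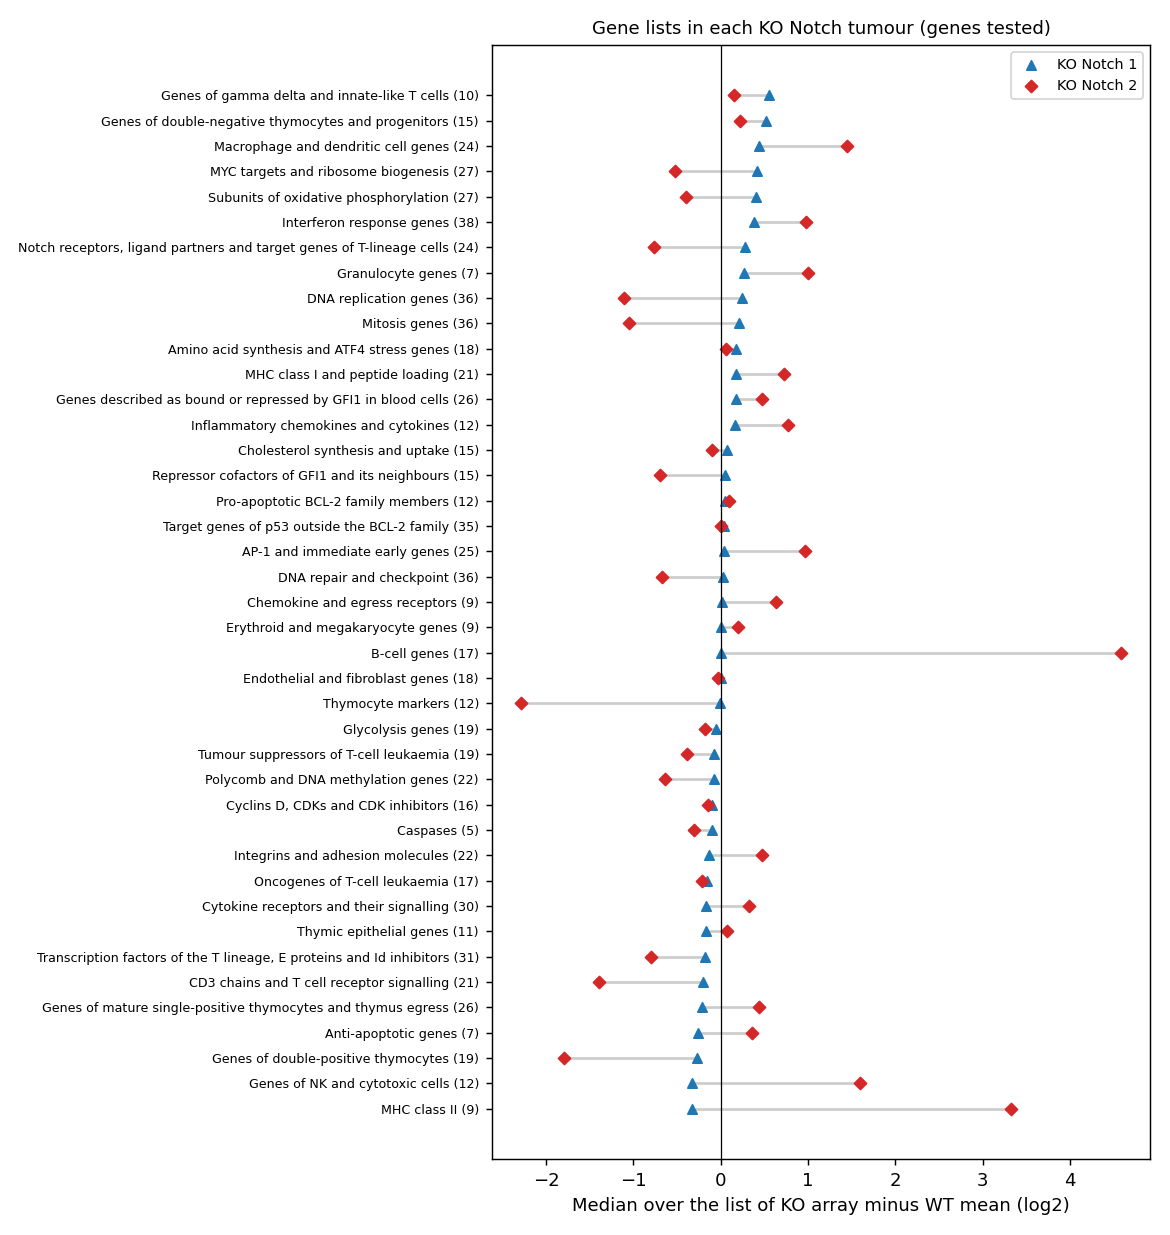
Median difference from the WT mean (log2) over each gene list in KO Notch 1 (triangles) and KO Notch 2 (diamonds), ordered by KO Notch 1, with the number of genes tested in parentheses. B-cell genes (0.00 and 4.58) and MHC class II genes (-0.33 and 3.33) are furthest apart, and interferon genes (0.38 and 0.98) lie above 0 in both.

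Known or proposed GFI1 targets of blood cells had 13 of 26 members above and 1 below, with medians of 0.18 and 0.47. Irf4, a factor of activated and plasma cells, read 9.04 and 8.57 in WT against 10.60 and 11.72 in KO (2.35 ± 0.62, limma adjusted p = 0.61). Irf8 (1.66 ± 0.74) and Sfpi1, the array's name for the myeloid and B-cell factor PU.1 (1.83 ± 0.86), stood 0.17 and 0.26 above the WT mean in KO Notch 1. Irf8 stood 3.15 above it in KO Notch 2, the array with high B-cell genes, where Sfpi1 read 12.07 against 8.94 in KO Notch 1. Ets1, a factor of T cells, lay below (-0.60 ± 0.23). In KO Notch 1, 16 of 26 members lay above both WT arrays and 3 below, against 35.1% and 36.1% of all genes. In the same array 17 of 24 macrophage and dendritic cell genes lay above both WT arrays (median 0.44), and both lists hold Sfpi1 and Csf1r. The part of myeloid RNA in the values of GFI1 targets was not tested.

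Thymocytes of the series, which share no array with the tumours, are also titled Gfi1 KO or WT, in cells that are not transformed. No interval after pIpC is recorded for them, and whether Gfi1 was lost in the same way was not tested. Sex-linked genes differed too. Xist read 13.09 to 13.54 on the Notch arrays and averaged 6.28 in WT untreated thymocytes, and Eif2s3y read 5.02 to 5.56 against 11.36. In thymocytes 866 of 12747 genes were called higher in untreated KO (6.79%) and 1035 in irradiated KO (8.12%). All calls in untreated thymocytes, 1566 in both directions, dropped to between 716 and 859 without any 1 of the 4 untreated arrays. Of 152 genes more than 2-fold higher in untreated KO thymocytes, 50 had both KO Notch arrays above both WT arrays (32.9% of them, and 3.28% of the 1525 such genes) and 8 below. The shares over all genes tested in Notch tumours were 11.7% above and 17.4% below. KO Notch 1 alone lay above both WT arrays in 89 of the 152 genes and below both in 20, and KO Notch 2 in 83 and 48. Over all genes these shares were 35.1% and 36.1% for KO Notch 1, and 33.6% and 48.9% for KO Notch 2. From irradiated thymocytes, 55 of 167 genes had both KO Notch arrays above (32.9%, and 3.61% of the 1525) and 8 below, against the same 11.7% and 17.4%. Of the genes more than 2-fold lower in KO thymocytes, 12 of 27 (untreated) and 13 of 30 (irradiated) had both KO Notch arrays below, against 17.4% of all genes. Across the 12346 genes tested in both, the KO difference in Notch tumours correlated at 0.326 with that in untreated and 0.313 with that in irradiated thymocytes (0.251 for KO Notch 1 and 0.255 for KO Notch 2 with untreated). These are correlations across genes, which are not independent replicates.

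Of 93 genes more than 2-fold higher in both thymocyte comparisons, 16 also stood more than 2-fold above the WT mean in each KO Notch array. Over all genes tested in Notch tumours the share that did so was 0.714%. Choosing genes by their distance from the WT mean largely fixes that the groups do not overlap, which held in 15 of the 16. These 16 were chosen after their values were seen, and 0 of them passed in Notch tumours (limma adjusted p from 0.0696). Il18r1, which binds interleukin 18 as part of its receptor, read 6.20 and 6.74 in WT and 9.21 and 8.45 in KO (2.36 ± 0.51, limma adjusted p = 0.389). Both KO arrays were higher in 15 of its 16 probe sets, and in ENU tumours it read 5.83 to 6.40 in WT and 7.47 to 9.15 in the arrays labelled KO. Gpr183, a receptor that guides lymphocyte migration, read 7.72 and 8.03 in WT against 9.48 and 10.97 in KO (2.35 ± 0.46, limma adjusted p = 0.27). Itsn1, an endocytosis scaffold, read 7.34 and 7.36 in WT against 8.75 and 8.51 in KO (1.28 ± 0.23, limma adjusted p = 0.22). The KO arrays were close to each other for Itsn1, Crim1 (1.31 ± 0.36), Diap2 (1.22 ± 0.56) and Thbs1 (1.21 ± 1.07). The WT arrays of Diap2 were far apart, at 7.86 and 9.93 against 10.16 and 10.06 in KO, so that WT Notch 2 lay just under the KO arrays.

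The rest of these 16 were Maf, Rgmb, the ceramide synthase Lass4 (2.35 ± 1.03), the metallothionein Mt2 (2.41 ± 1.37), the stress kinase Map3k5 (1.86 ± 0.46), the exchange factor Rgl1 (2.14 ± 0.61), the acute phase protein Saa3 (3.36 ± 1.05), fibronectin (Fn1), the protease genes Lgmn (1.62 ± 0.74) and Scpep1 (2.03 ± 0.64). Fn1 was the gene whose groups overlapped, at 10.30 and 7.65 in WT against 10.11 and 11.11 in KO. In 4 of the 16 every ENU array labelled KO also lay above every WT ENU array, and 0 of the 16 were called in ENU tumours (limma). The share of all genes that lay so in ENU tumours was not computed, so the count of 4 has no background to be read against. On the lower side 1 of 13 shared genes, the peptide transporter Slc15a1, stood more than 2-fold below in each KO Notch array, against 0.614% of all genes tested. It read 7.64 and 9.81 in WT against 7.13 and 6.62 in KO (-1.85 ± 1.09).

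**Figure D5:**
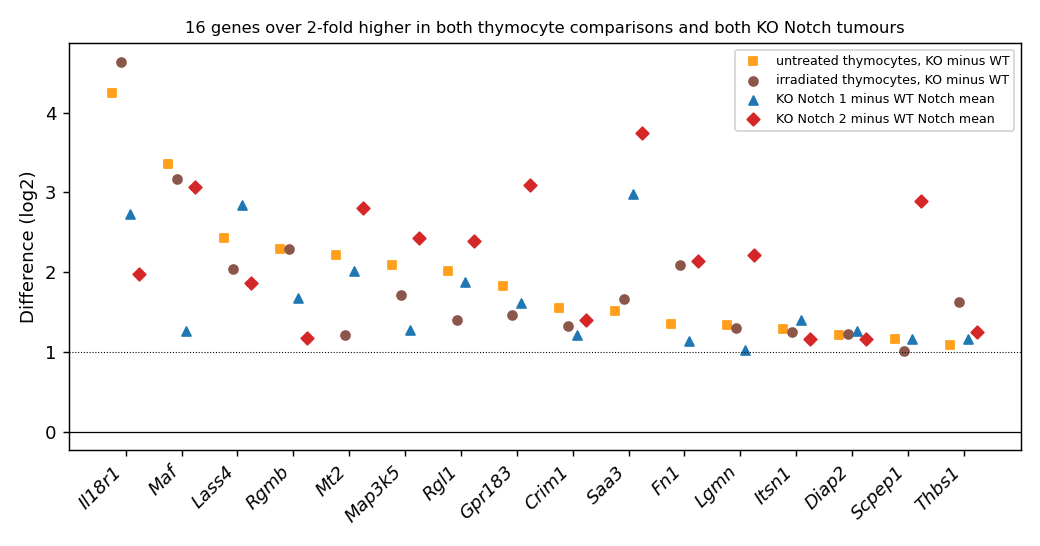
Log2 difference of KO from WT for the 16 shared genes in untreated thymocytes (squares) and irradiated thymocytes (circles), and of KO Notch 1 (triangles) and KO Notch 2 (diamonds) from the WT Notch mean, with the dotted line at a 2-fold difference. Il18r1 has the largest thymocyte values (4.25 and 4.64) and stands at 2.73 and 1.98 in the KO Notch arrays.

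The KO effect in Notch tumours was also set against that in ENU tumours, in which Gfi1 probe set 2 overlapped between labels (10.58 to 11.56 in WT and 10.70 to 11.01 in arrays labelled KO). For 0 of 13025 genes did the effects differ past the threshold (0% called; limma, smallest adjusted p = 0.114), while 934 had an unadjusted p under 0.05. The count was 261 without KO Notch 1, 2 without KO Notch 2, 2 without WT ENU 3 and 1 without WT ENU 2. Fgd6, Atp1b1 and Tfpi, among the genes named above, had effects that differed by 2.14, -3.91 and -3.49 (Notch minus ENU, limma adjusted p = 0.114 each). Evi5 stood 0.80 higher in KO Notch tumours and 1.09 lower in ENU tumours labelled KO (-1.09 ± 0.18), where its arrays read 9.05 to 9.38 in WT and 7.89 to 8.34 in KO. The difference between these effects was 1.90 ± 0.28 (limma adjusted p = 0.189).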

How the data were processed

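The series holds 20 mouse expression arrays, of which the 4 from Notch tumours are described here. Per the labels' protocols, RNA was extracted with a Qiagen kit, amplified with a NuGEN kit and labelled with biotin. The authors deposited a table of 182058 probe sets, read from its range (3.37 to 15.01) as log2 signal. Its log base, background correction and normalization were not given in the labels or headers, and a fold holds only if the base is 2. Probe sets that name 1 gene (167016) were used, named by the platform annotation, which can be old: 16932 of 19607 symbols are current RefSeq symbols.

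Each probe set was centred over the 20 arrays, and the median over the probe sets of a gene, plus their mean level, gave its value. Testing was limited to genes exceeding the 40th percentile in 2 or more arrays of the fit. limma 3.58.1 (lmFit, eBayes) in R 4.3.3 with Benjamini-Hochberg adjustment over all genes and a threshold of 0.05 used the 10 tumour arrays, each group with its own mean, and, in a separate fit, the 10 thymocyte arrays. Alternatives covered normalization, filter, probe set summary, samples in the fit, weights, the replicate block and leaving out each array. Differences are KO minus WT on the log2 scale, followed by ± their standard error. The number of arrays limits the precision. The scripts were tested on simulated data.

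Named genes are Gfi1 by probe set, up to 15 rises and 15 falls past the threshold with groups apart, the members of lowest p in each list (at most 4), the 10 genes each way that most separate the KO arrays, and a set of p53, apoptosis, Notch and T-cell genes. The members and lists were chosen with earlier results of these data known. Replicate numbers were not treated as pairs: deviations of same-numbered arrays correlated between -0.081 and 0.046. With 2 arrays a group, both Notch pairs give the same value by construction. Such correlations cannot exclude a shared mouse or batch. Promoters are RefSeq's for GRCm38.p6. Figures were drawn with matplotlib 3.10.9 in Python 3.11.15.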

Additional observations from a re-analysis of the deposited data

How the results depend on the processing

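The number of genes called between KO and WT Notch tumours, 2 as reported, was 10 after a further quantile normalization (4 higher and 6 lower), 184 with all 20 arrays in the fit (91 higher and 93 lower), and 0 with array weights, with the replicate block or with the 4 Notch arrays only (limma; unadjusted p under 0.05 in 491, 833 and 361 genes). It was 2 or 3 with arrays centred on their medians, without a filter, with a filter at the array median, with the mean of the probe sets, and with trend and robust eBayes. Pdlim1 and H2-Bl were among the called genes wherever any were called in these fits. Leaving out 1 array gave 0 to 1066 calls. The count of genes whose effect differed between tumour types, 0 as reported, was 126 with all 20 arrays, 1 without a filter and 0 to 261 with 1 array left out. It was also 0 with the replicate block. The number of Gfi1 probe sets called, 1 as reported, was 0 after quantile normalization, with the 4 Notch arrays only or with the replicate block, 2 with all 20 arrays, and 0 to 2 with 1 Notch array left out. Calls in untreated thymocytes, 1566 as reported, numbered 115 with all 20 arrays and 716 to 1833 with 1 array left out. Those in irradiated thymocytes, 1903 as reported, numbered 148 with all 20 arrays and 1432 to 1972 with 1 left out. The cause of these shifts was not tested. The genes more than 2-fold apart between the KO Notch arrays numbered 2316, 2223 after quantile normalization and 2605 without a filter. For single genes named in the text, 897 values under an alternative stayed on the same side of the threshold with the same sign or no call, 46 gained a call and 20 lost one. With the replicate block, Pdlim1, H2-Bl and Gfi1 probe set 2 lost their calls (limma adjusted p = 0.307, 0.306 and 0.382). Replicate numbers were taken only as names of the samples. Correlations of deviations were under 0.1, which cannot exclude a pairing. Precision is limited by 2 arrays a group.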
